A study of Mus musculus with 9 samples.

Results

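Antigen presentation and interferon response genes were examined in cells labelled as neural precursors and sorted by a nestin reporter from the adult mouse dentate gyrus (DG) and subventricular zone (SVZ), the sites where hippocampal granule cells and olfactory bulb interneurons are made in adulthood. The genes were chosen by symbol: the H2 genes of the mouse major histocompatibility complex, B2m, the peptide transporter and loading genes, Cd74, the interferon receptors, the STAT and IRF transcription factors, and the Ifi, Ifit, Ifitm, Oas, Isg, Gbp, Mx, Bst2 and Rsad2 genes. Of 138 annotated symbols that the rule matches, 71 were among the 14477 genes of the deposited table, and these 71 are described here; the other 67, Nlrc5, Ciita and H2-Aa among them, are not analysed here.

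RNA came from mice of the strain B6.Cg-Tg(Nes-EGFP)1Yamm, whose transgene puts EGFP under regulatory sequence of Nestin, an intermediate filament gene active in neural stem cells, so that the sort selects cells by reporter activity and not by a surface marker. All mice were untreated, in standard housing, and all carried the transgene; their age is not given in the sources used here. There were 5 DG and 4 SVZ libraries, named here by region and number, and nothing in the labels ties a library to its own animal or to a pool, so the p-values rest on library-to-library spread alone, which may be in part technical. Library totals, recovered from the values, ran from 31126803 to 41164044 reads. Levels are in CPM, which is reads divided by the library total and put on one scale, in which a single read equals 0.0243 to 0.0321.

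All 8 neural precursor markers had reads in both regions, at a summed 1347 to 1544 CPM in DG and 1684 to 2325 CPM in SVZ, but not in the same proportions. Mki67, Dcx, Pax6, Sox2 and Nes were higher in SVZ (log2 fold changes -2.14, -2.24, -1.59, -1.11 and -0.95), Gfap and Hopx were higher in DG (4.17 and 5.50), and Hopx had 8 to 29 reads per SVZ library. The highest mean of the 8 was that of Gfap in DG (9.67 log2 CPM) and of Dcx in SVZ (10.17 log2 CPM). The sums of the 2 regions therefore rest largely on different genes. The summed level of 8 endothelial markers was 553 to 1241 CPM in DG and 5.2 to 39.9 CPM in SVZ, that of 7 pericyte markers 5225 to 10979 CPM against 48.2 to 122 CPM, that of 5 fibroblast markers 131 to 267 CPM against 4.06 to 8.65 CPM, and that of 5 border macrophage markers 188 to 842 CPM against 3.77 to 16.1 CPM. Every marker of these 4 lists was higher in DG. In every DG library the pericyte sum exceeded the neural precursor sum, which goes against the label of neural precursors, and the samples are called here by region. By contrast, 8 microglial markers summed to 250 to 916 CPM in DG and 207 to 1071 CPM in SVZ, with ranges that overlapped. The part of these cell types in the results below was not tested except where a value is given, and in sorted bulk samples fewer cells of a type and less RNA per cell cannot be told apart. None of 8 lymphocyte markers, and 1 of 5 dendritic cell markers (Zbtb46), was among the genes of the table.

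Class I molecules, a heavy chain held by the small subunit B2m, show peptides from inside the cell to cytotoxic T cells; the peptides are cut by the proteasome, pumped into the endoplasmic reticulum by Tap1 and Tap2 and loaded with the help of Tapbp. Class II molecules show peptides from the endosome and belong mainly to dedicated antigen-presenting cells, which in the brain are chiefly microglia and macrophages. Interferons signal through paired receptor chains to STAT factors; type I interferon activates a complex of STAT factors and Irf9 that binds the interferon-stimulated response element (ISRE), and interferon gamma activates STAT dimers that bind the gamma-activated site (GAS). The induced genes include antiviral effectors and the class I pathway itself.

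The promoter windows below (RefSeq, GRCm38.p6, 250 bases before to 50 after the start, read 5′ to 3′ on the gene's strand) are shown because their genes include defining members of the class I and effector sets, and because Ifit2, unlike its neighbours, was not higher in DG. Capitals mark the ISRE core searched, GAAANNGAAA or its reverse complement TTTCNNTTTC. The windows are chr2:122147437-122147736 (plus strand) for B2m, chr4:156200769-156201068 (minus) for Isg15, chr8:71537423-71537722 (minus) for Bst2, chr19:34583279-34583578 (plus) for Ifit3 and chr19:34550444-34550743 (plus) for Ifit2.
B2m promoter: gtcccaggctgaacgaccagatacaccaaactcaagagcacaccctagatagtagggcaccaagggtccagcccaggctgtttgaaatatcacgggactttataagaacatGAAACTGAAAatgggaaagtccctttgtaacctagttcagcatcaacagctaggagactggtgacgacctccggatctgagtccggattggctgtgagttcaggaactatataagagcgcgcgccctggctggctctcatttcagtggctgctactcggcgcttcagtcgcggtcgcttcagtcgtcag
Isg15 promoter: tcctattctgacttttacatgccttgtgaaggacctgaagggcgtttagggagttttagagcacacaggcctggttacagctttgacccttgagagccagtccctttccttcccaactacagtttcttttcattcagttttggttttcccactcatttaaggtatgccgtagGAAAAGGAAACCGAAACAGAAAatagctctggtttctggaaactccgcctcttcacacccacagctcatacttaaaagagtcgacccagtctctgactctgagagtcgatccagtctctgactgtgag
Bst2 promoter: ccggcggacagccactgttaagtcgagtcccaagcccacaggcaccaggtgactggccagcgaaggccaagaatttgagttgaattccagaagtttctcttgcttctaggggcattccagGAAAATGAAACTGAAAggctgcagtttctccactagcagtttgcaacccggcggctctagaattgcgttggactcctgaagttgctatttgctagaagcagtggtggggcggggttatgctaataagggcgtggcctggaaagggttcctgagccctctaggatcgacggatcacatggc
Ifit3 promoter: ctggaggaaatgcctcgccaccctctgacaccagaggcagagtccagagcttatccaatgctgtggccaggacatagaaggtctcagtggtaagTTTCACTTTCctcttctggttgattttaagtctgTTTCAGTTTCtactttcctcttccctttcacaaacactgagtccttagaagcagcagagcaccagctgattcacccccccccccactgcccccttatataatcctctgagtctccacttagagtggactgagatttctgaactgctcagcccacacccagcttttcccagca
Ifit2 promoter: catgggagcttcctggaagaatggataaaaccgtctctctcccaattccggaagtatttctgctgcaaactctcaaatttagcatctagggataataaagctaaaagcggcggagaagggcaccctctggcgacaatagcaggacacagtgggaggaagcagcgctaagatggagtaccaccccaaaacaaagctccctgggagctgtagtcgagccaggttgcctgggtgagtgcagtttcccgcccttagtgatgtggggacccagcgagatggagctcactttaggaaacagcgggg
The B2m window held 1 core, those of Ifit3 and Bst2 held 2 and that of Isg15 held 3, the cores of Isg15 and of Bst2 overlapping one another. Neither of the 2 Ifit2 windows held one, and the rest of the gene was not searched. Other effector genes also had windows without a core. Of these, Ifitm1, Ifitm10, Oasl1, Oasl2, Isg20, Ifi35, Ifi44 and Ifi47 were higher in DG, and Isg20l2 was higher in SVZ. Windows were found by symbol for 55 of the 71 genes, and 22 of these (40%) had at least 1 ISRE core, against 3.99% of all 27025 genes with a window and 3.71% of the 10834 such genes in the table. The core was in the windows of 17 of 27 effector genes (63%), 3 of 12 antigen presentation genes (B2m, H2-T22 and H2-T23) and 2 of 16 receptor and factor genes (Stat2 and Irf2). The GAS core TTCNNNGAA, which is its own reverse complement, was in the windows of 14 of the 55 genes (25.5%), against 9.55% of all genes with a window; Irf1 held one, its first base at -90 from the start. In Bst2 a GAS core overlapped an ISRE core. A match is a description of the letters in the window and not a measured binding site.

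Most of the 71 genes were higher in DG. Expression is given as log2 CPM, and fold changes are DG minus SVZ on that log2 scale, with a prior count of 1 read. By limma over all genes of the table (adjusted p under 0.05), 60 of the 71 were called up in DG, 3 were called up in SVZ and 8 did not pass, where 32.9% of all genes were called in the DG direction and 33.7% in the SVZ direction. The DG and SVZ ranges did not overlap for 56 of the 71, with DG on top in 54 and SVZ on top in 2, beside 29.7% and 28.3% of all genes. The other 15 overlapped. At least a 4-fold higher level in DG was found for 39 of the 71, against 12.4% of all genes. The median log2 fold change was 2.40, and that of all genes was -0.07.

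The table holds only genes above 1 CPM in at least 3 libraries, and 24 of the 71 met that limit through the DG libraries alone and 1 (H2-M5) through the SVZ libraries alone. That limit favours a difference in these genes, and their calls are given as a description. Among the 24 are H2-M3, H2-Ab1, H2-Eb1, Stat5a, Ifitm1, Ifitm10, Oas1a, Oas2, Oasl1, Isg20, Gbp4, Gbp5, Gbp6 and Gbp9. Ifi203, Ifi203-ps, Ifi204, Ifi207, Ifi211, Ifi27l2a, Ifi44, Ifi47 and Mx2 are also among them. H2-Ab1 was not called. Of the other 46, 37 were higher in DG and 2 in SVZ, where 29% and 34.7% of the 12751 genes that met the limit in both regions were called in these directions. The median log2 fold change of the 46 was 1.83, and that of the 12751 was -0.12. The counts of 54 and 39 and the median of 2.40 given above include the 24 genes. All 71 had reads in every DG library, and 67 had reads in all 9 libraries.

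**Figure D1:**
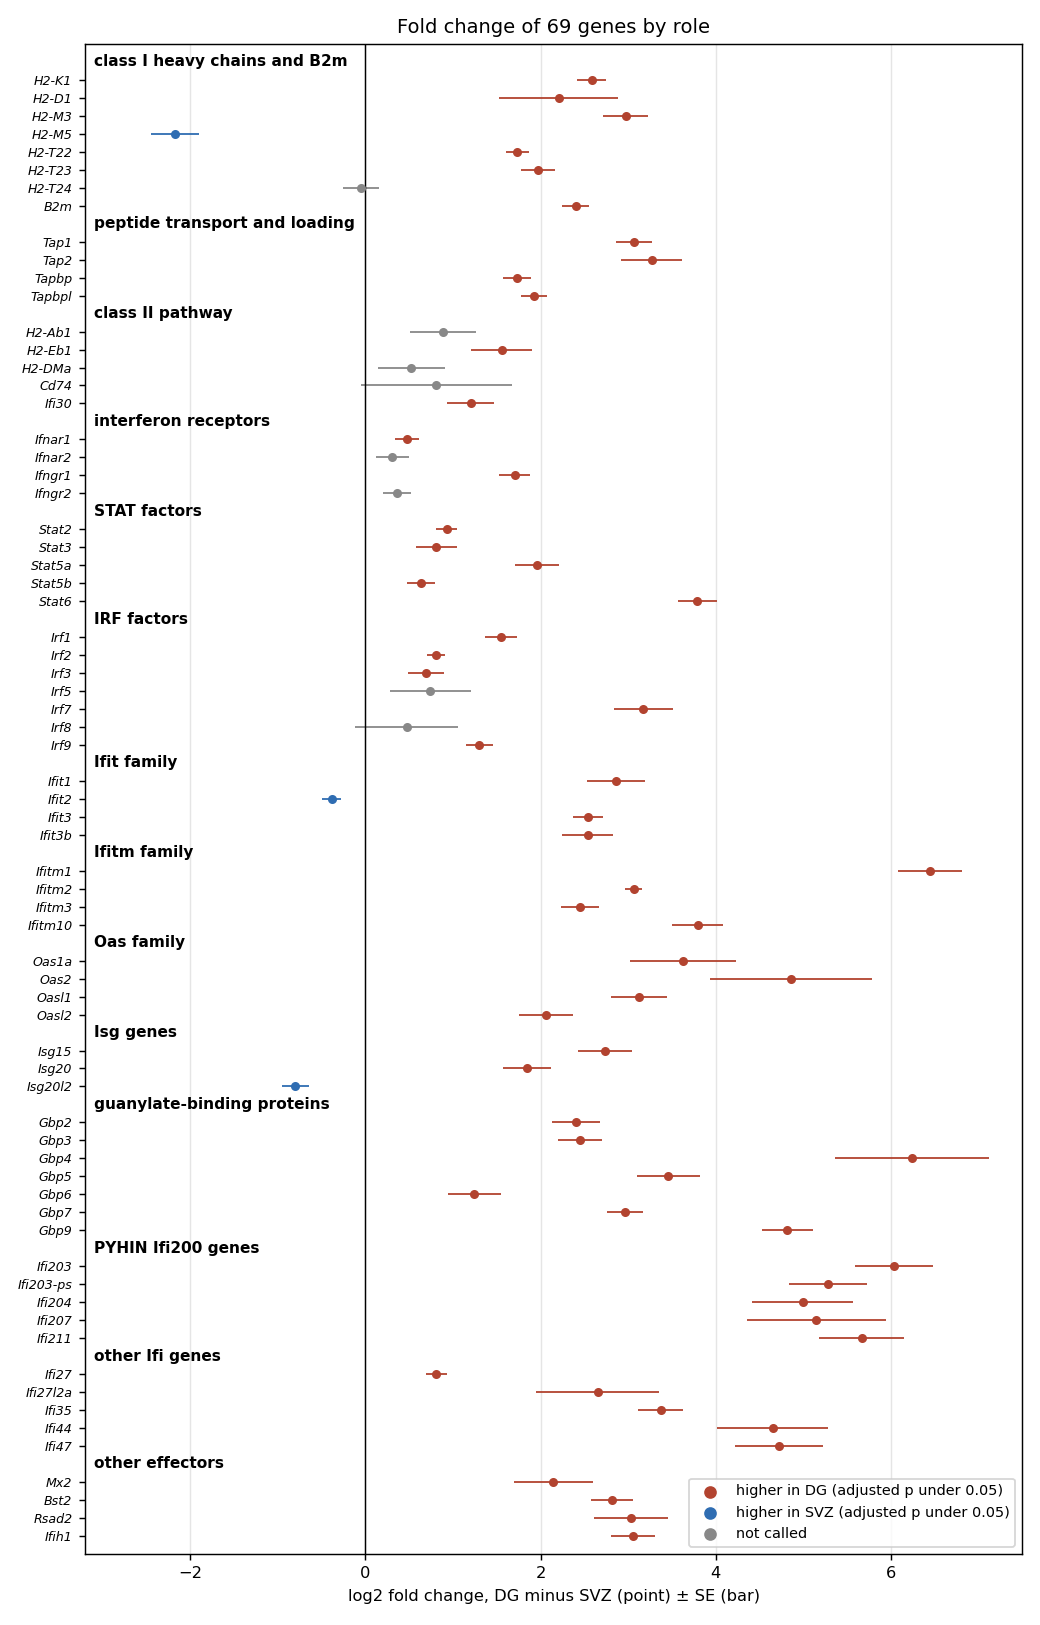
Log2 fold change (DG minus SVZ, horizontal axis) of 69 of the 71 genes, grouped by role; points are limma estimates, bars are 1 standard error, and colour gives the call at adjusted p under 0.05. 58 points are called to the right of 0 and 3 to the left (H2-M5, Ifit2 and Isg20l2).

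Most class I genes were higher in DG, with 6 of 8 heavy chain and B2m genes called in that direction, beside 32.9% of all genes. So were all 4 transport and loading genes. Of the 6 heavy chain and B2m genes that met the limit of the table in both regions, 5 were called higher in DG. B2m (ENSMUSG00000060802, chromosome 2, 122147686 to 122153083, plus strand), the invariant subunit of every class I molecule, stood at 8.25, 8.0, 8.38, 8.02 and 8.41 log2 CPM in DG 1 to 5 and at 5.48, 5.59, 6.02 and 6.15 in SVZ 1 to 4. The lowest DG library lay well above the highest SVZ library. The difference was 5.29-fold, from 8.21 ± 0.19 (SD, n = 5) to 5.81 ± 0.33 (SD, n = 4), with a log2 fold change of 2.40 (SE 0.15, adjusted p = 2.46e-07).

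H2-K1 (ENSMUSG00000061232, chromosome 17, 33996017 to 34000347, minus strand), a classical class I heavy chain, had values of 6.65, 6.29, 6.59, 6.23 and 6.53 in DG and 3.49, 4.13, 4.21 and 3.67 in SVZ. It was tight within each region and did not overlap between them (log2 fold change 2.58, SE 0.17, adjusted p = 2.45e-07). H2-D1 (ENSMUSG00000073411, chromosome 17, 35262730 to 35267499, plus strand), the other classical heavy chain, had values of 8.59, 7.28, 8.53, 7.83 and 5.22 in DG and 4.97, 6.12, 6.16 and 3.87 in SVZ. DG 5 lay below SVZ 2 and SVZ 3, so that the regions overlapped for H2-D1 although not for H2-K1. Its log2 fold change was 2.21 with a far wider error (SE 0.68, adjusted p = 0.0135), and was 2.78 without DG 5 and 1.74 without SVZ 4, passing the test in all alternatives run (adjusted p = 0.000699 to 0.0474). Per kilobase of merged exon, mean levels in DG were 8.43 for B2m, 6.12 for H2-D1 and 4.90 for H2-K1 (log2 CPM per kilobase), and in SVZ they were 6.03, 3.91 and 2.32.

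The nonclassical heavy chains had estimates of both signs, and whether they differ from one another was not tested. H2-M3 entered the table through the DG libraries alone and H2-M5 through the SVZ libraries alone, so the calls of both are a description. H2-M3, which presents formylated peptides, was higher in DG by 2.97 (SE 0.26), H2-T23, which encodes the ligand Qa-1 of natural killer receptors, by 1.97 (SE 0.19), and H2-T22, a ligand of gamma delta T cells, by 1.73 (SE 0.13). H2-T24 had values of 4.22, 4.28, 4.90, 4.34 and 4.00 in DG and 4.68, 3.93, 4.48 and 4.5 in SVZ. The libraries of the regions were interleaved, and the difference of -0.05 (95% interval -0.49 to 0.39, adjusted p = 0.839) took either sign among alternative settings, from -0.205 without SVZ 2 to 0.0631 without both DG 2 and SVZ 1. H2-M5 ran the other way, at -0.68, -0.84, -1.01, -0.79 and -1.54 in DG and 0.93, 1.27, 1.21 and 1.40 in SVZ. All SVZ libraries lay above all DG libraries, at low levels of 60 to 85 reads against 13 to 20 (log2 fold change -2.18, SE 0.28, adjusted p = 3.86e-05).

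Class I genes are near copies of one another, and how reads that match several genes were counted is not given in the sources used here. Of the 50-base stretches of the longest transcript, 58.5% for H2-T22, 16% for H2-T23, 14.3% for H2-D1 and 8.11% for H2-K1 also occurred in a transcript of another gene, and none for B2m. An antisense transcript covers 29.4% of the exons of H2-T22, and the library kit does not mark the strand.

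Tap1 and Tap2, the 2 subunits of the peptide pump, showed the largest differences of the loading genes. Tap1 stood at 4.05, 3.51, 3.99, 3.92 and 3.56 in DG and at 1.17, 0.68, 0.44 and 0.65 in SVZ. Its ranges lay far apart (8.39-fold, log2 fold change 3.07, SE 0.21, adjusted p = 3.52e-07). Tap2 stood at 5.55, 5.09, 5.15, 5.08 and 4.40 in DG and at 1.76, 2.45, 2.28 and 0.68 in SVZ. DG 5 and SVZ 4 were the lowest of their groups, as they were for H2-D1 (log2 fold change 3.27, SE 0.35, adjusted p = 9.59e-06). Tapbp (tapasin), which bridges the pump to class I molecules, was higher by 1.73 (SE 0.16) and its relative Tapbpl, a peptide editor, by 1.92 (SE 0.15). An antisense gene overlaps 24.9% of the exons of Tapbp, and Tap1 shares 3.87% of its exon bases with its neighbour Psmb9.

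**Figure D2:**
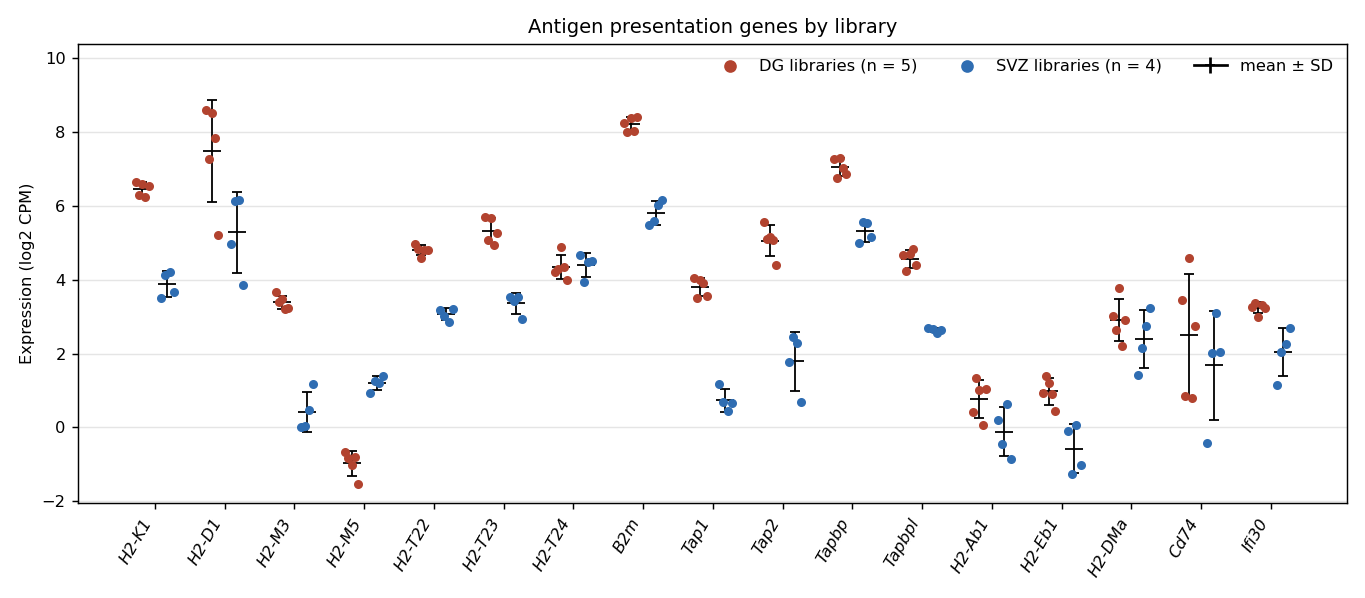
Expression (log2 CPM, vertical axis) of the 17 antigen presentation genes in each DG (n = 5) and SVZ (n = 4) library, with mean ± SD. Class I and loading genes separate by region except H2-D1 and H2-T24, H2-M5 is inverted, and Cd74 spreads widely within both regions.

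Of the 5 class II pathway genes, 2 were higher in DG, a share close to the 32.9% of all genes, and 3 did not pass; all 5 estimates were above 0, from 0.53 to 1.56. Whether they differ from the class I genes was not tested. Cd74, the invariant chain that escorts class II molecules, had values of 3.44, 0.86, 4.6, 0.79 and 2.75 in DG and -0.41, 2.00, 3.10 and 2.03 in SVZ. DG 2, DG 4 and SVZ 1 were low, and the regions overlapped although DG 1 and DG 3 lay above every SVZ library (log2 fold change 0.81, 95% interval -1.08 to 2.70, adjusted p = 0.419). These libraries also had low microglial marker sums: DG 2 (250 CPM) and DG 4 (430 CPM) were the lowest in DG, and SVZ 1 (207 CPM) was the lowest in SVZ. The border macrophage sum was also lowest in DG 2 (188 CPM) and DG 4 (351 CPM). In SVZ, however, it was lowest in SVZ 3 (3.77 CPM), where Cd74 was highest. DG 2 was also the highest DG library for 3 of the 5 class II genes (H2-Ab1, H2-Eb1 and Ifi30). The part of either cell type in the spread was not tested. Without SVZ 1 the difference in Cd74 was 0.11 (adjusted p = 0.91).

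H2-Eb1, a class II beta chain, stood at 0.93, 1.40, 1.19, 0.90 and 0.45 in DG and -0.09, -1.27, 0.06 and -1.03 in SVZ. All DG libraries were higher, from 55 to 94 reads against 12 to 32 (log2 fold change 1.56, SE 0.35, adjusted p = 0.00222). Like H2-Ab1, it entered the table through the DG libraries alone, so its call is a description. H2-Ab1, the other beta chain of the table, differed by 0.89 (95% interval 0.05 to 1.72, adjusted p = 0.0573); it passed under TMM scaling (adjusted p = 0.0467), without DG 4 (0.0324) and without SVZ 3 (0.0251), with adjusted p of 0.0251 to 0.155 over all alternatives. H2-DMa, a subunit of the class II peptide editor, differed by 0.53 (95% interval -0.32 to 1.37, adjusted p = 0.242). Ifi30, a lysosomal thiol reductase that unfolds antigens, was higher in DG at 3.26, 3.38, 2.99, 3.33 and 3.24 against 1.15, 2.05, 2.25 and 2.69. Its regions did not overlap, and SVZ 1 was the lowest library (log2 fold change 1.20, SE 0.27, adjusted p = 0.00224).

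Among the interferon receptors, 2 of 4 chains were higher in DG, where 32.9% of all genes were called in that direction. Ifngr1, the ligand-binding chain for interferon gamma, stood at 7.31, 6.95, 7.08, 7.19 and 7.07 in DG and at 4.81, 5.46, 5.55 and 5.84 in SVZ. The ranges were more than 1 log2 unit apart (3.27-fold, log2 fold change 1.71, SE 0.18, adjusted p = 8.3e-06). Its partner chain Ifngr2 differed by 0.36 (95% interval 0.00 to 0.72, adjusted p = 0.0712) and passed under TMM scaling (adjusted p = 0.0446; 0.0446 to 0.177 over all alternatives). Ifnar1, a chain of the type I interferon receptor, stood at 6.92, 6.74, 7.15, 6.72 and 6.47 in DG and 6.50, 6.39, 6.24 and 6.18 in SVZ. Only DG 5 fell within the SVZ range, and the difference was small (log2 fold change 0.48, SE 0.13, adjusted p = 0.00859). The other chain, Ifnar2, differed by 0.31 (95% interval -0.10 to 0.71, adjusted p = 0.156).

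The STAT factors were higher in DG, and Stat6 stood out by size. Stat6 (ENSMUSG00000002147, chromosome 10, 127642986 to 127660957, plus strand), which relays interleukin 4 and interleukin 13 and not interferon, stood at 7.20, 6.97, 7.22, 7.0 and 6.16 in DG and at 2.73, 2.96, 3.39 and 3.39 in SVZ. Even DG 5, the lowest of its group, lay above every SVZ library (13.8-fold, log2 fold change 3.79, SE 0.23, adjusted p = 1.5e-07). Stat2, a part of the type I complex, was higher by 0.93 (SE 0.12), Stat5a by 1.96 (SE 0.25), Stat3 by 0.81 (SE 0.23) and Stat5b by 0.64 (SE 0.16).

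Most IRF factors were higher in DG, with Irf7 well ahead of the rest. Irf7, an interferon-induced factor that amplifies type I interferon, stood at 4.49, 4.22, 4.81, 3.93 and 4.22 in DG and at 2.28, 0.87, 1.11 and 0.40 in SVZ. SVZ 1 was the highest of its group, with no overlap (9.01-fold, log2 fold change 3.17, SE 0.34, adjusted p = 9.83e-06). Irf9, the DNA-binding part of the type I complex, stood at 5.79, 5.51, 5.91, 5.74 and 5.83 in DG and at 4.84, 4.11, 4.36 and 4.51 in SVZ. It did not overlap either (2.47-fold, log2 fold change 1.30, SE 0.15, adjusted p = 1.76e-05). Irf1, induced by interferon gamma, was higher by 1.55 (SE 0.19), Irf2, its competitor at the same sites, by 0.81 (SE 0.10), and Irf3, the latent factor of virus sensing, by 0.69 (SE 0.21).

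The IRF factors that did not pass, Irf8 and Irf5, are known from myeloid cells. Irf8, a lineage factor of microglia and macrophages, had values of 3.16, 0.83, 2.32, 2.06 and 1.07 in DG and -0.36, 2.05, 2.04 and 1.92 in SVZ. The groups were interleaved apart from SVZ 1, the library with the lowest microglial sum (207 CPM), and the difference of 0.47 (95% interval -0.82 to 1.77, adjusted p = 0.489) became -0.12 without SVZ 1. Irf5 differed by 0.74 (95% interval -0.28 to 1.76, adjusted p = 0.174).

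**Figure D3:**
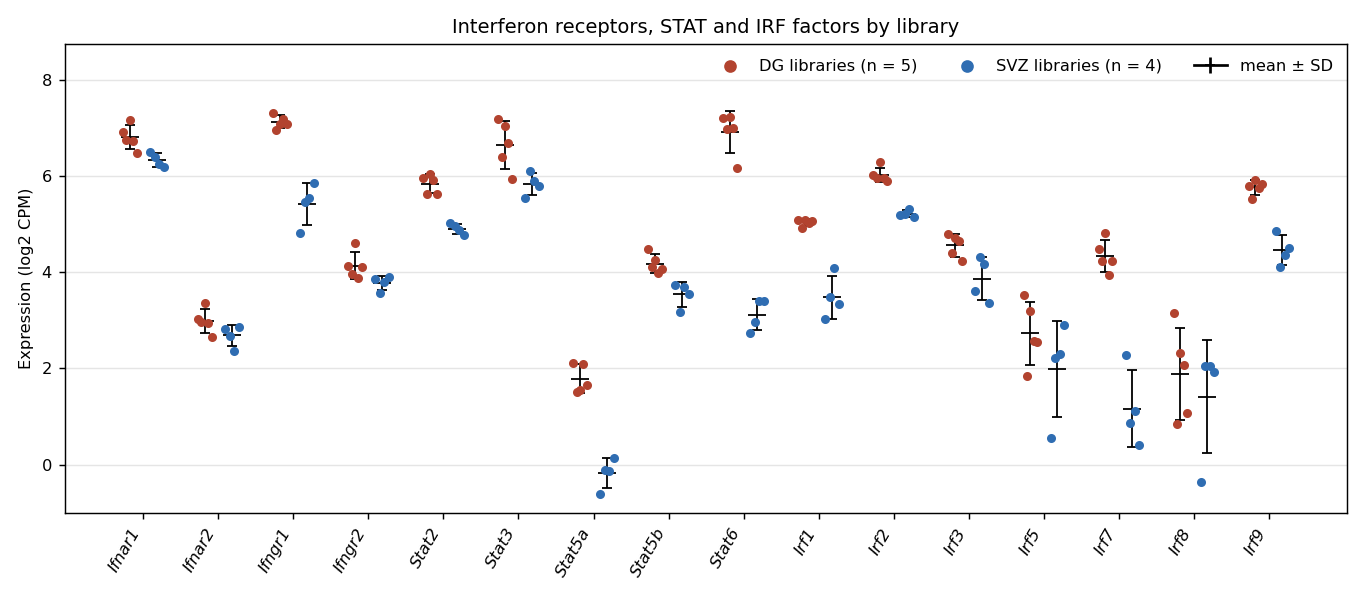
Expression (log2 CPM, vertical axis) of 16 of the 18 interferon receptor, STAT and IRF genes in each DG (n = 5) and SVZ (n = 4) library, with mean ± SD. Stat6 and Irf7 show the widest gaps between the regions, and Irf5 and Irf8 overlap.

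Of the 36 interferon-induced effectors, 34 passed with DG on top and 2 with SVZ on top, beside 32.9% and 33.7% of all genes. In 33 the whole DG range lay above the SVZ range, beside 29.7% of all genes. The median log2 fold change of the 36 was 3.05, against 1.73 for the 17 antigen presentation genes, 0.87 for the 18 receptor and factor genes and -0.07 for all genes. Of these 36, 19 entered the table through the DG libraries alone, and 18 of these 19 were among the 33. Of the other 17, 15 were higher in DG and 2 in SVZ, with a median of 2.54, against 1.92 for the 13 antigen presentation genes and 0.81 for the 16 receptor and factor genes that met the limit in both regions. Endothelial, pericyte, fibroblast and border macrophage markers were higher in the same DG libraries, with summed levels given above.

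The Ifit proteins bind viral RNA and translation factors, and 3 of 4 were higher in DG, beside 32.9% of all genes. Ifit3 stood at 4.66, 4.52, 4.88, 4.94 and 4.61 in DG and at 2.23, 2.54, 2.19 and 1.76 in SVZ. Its regions were far apart (5.82-fold, log2 fold change 2.54, SE 0.18, adjusted p = 4.19e-07). Ifit1 was higher by 2.86 (SE 0.33) and Ifit3b by 2.54 (SE 0.29), and Ifit3 and Ifit3b are uncertain as separate genes because 51.2% and 45% of their 50-base stretches occur in another gene, most often in each other. Ifit2 (ENSMUSG00000045932, chromosome 19, 34550694 to 34576419, plus strand) stood at 6.45, 6.31, 6.16, 6.17 and 6.32 in DG and at 6.92, 6.70, 6.44 and 6.61 in SVZ. It was the highest of the family in both regions, also per kilobase (4.31 in DG and 4.69 in SVZ, against 3.37 and 0.51 for Ifit1), and slightly higher in SVZ, with the ranges touching at DG 1 and SVZ 3 (log2 fold change -0.38, SE 0.11, adjusted p = 0.00947). That call was lost with both DG 2 and SVZ 1 left out (adjusted p = 0.0508), over a range of 0.00538 to 0.0508 for all alternatives. None of the 50-base stretches of Ifit2 occurred in another gene.

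The Ifitm genes, which encode membrane proteins that block virus entry, were higher in DG in all 4 cases, beside 32.9% of all genes. Ifitm1 (ENSMUSG00000025491, chromosome 7, 140967221 to 140969825, plus strand) stood at 5.59, 5.71, 5.28, 5.72 and 5.05 in DG and at -0.68, -0.88, -0.13 and -2.23 in SVZ. It went from 1366 to 1917 reads per DG library to 6 to 28 per SVZ library (87.2-fold, log2 fold change 6.45, SE 0.36, adjusted p = 1.01e-07). Like Ifitm10, it entered the table through the DG libraries alone. Ifitm3 stood at 7.23, 7.10, 7.37, 7.12 and 7.06 in DG and 4.82, 4.79, 5.33 and 3.96 in SVZ. It was abundant in both regions and still apart (5.48-fold, log2 fold change 2.45, SE 0.22, adjusted p = 2.58e-06). Ifitm2 was higher by 3.06 with the smallest error of the family (SE 0.10, adjusted p = 5.24e-09), and Ifitm10 by 3.79 (SE 0.29). A predicted gene on the same strand covers 40.9% of the exons of Ifitm2.

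Isg15, a ubiquitin-like modifier and a standard reporter of interferon response, stood at 3.34, 3.12, 3.36, 3.06 and 3.31 in DG and at 1.62, -0.06, 0.19 and 0.26 in SVZ. The DG libraries were alike, and SVZ 1 stood above the other SVZ libraries without reaching DG (6.66-fold, log2 fold change 2.74, SE 0.31, adjusted p = 1.74e-05). Isg20, an exonuclease, was higher by 1.84 (SE 0.27). Isg20l2, which the symbol rule takes but which is known for ribosomal RNA processing, stood at 4.21, 4.32, 4.16, 4.19 and 4.16 in DG and at 5.17, 4.77, 4.67 and 5.42 in SVZ. Every SVZ library was higher (log2 fold change -0.80, SE 0.16, adjusted p = 0.000888).

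The Oas symbols take in 2′-5′ oligoadenylate synthetases, which switch on RNA decay, and synthetase-like genes such as Oasl1. All 4 genes were higher in DG, beside 32.9% of all genes. Of the 4, Oasl2 alone met the limit of the table in both regions. Oasl2 stood at 5.51, 5.22, 5.59, 5.33 and 5.09 in DG and at 4.47, 2.77, 2.87 and 3.03 in SVZ. SVZ 1 stood well above the other SVZ libraries (log2 fold change 2.06, SE 0.31, adjusted p = 0.000122). Oasl1 was higher by 3.12 (SE 0.32) and Oas1a by 3.62 (SE 0.60; 4.28 without SVZ 1), and 57.6% of the 50-base stretches of Oas1a occur in another gene. Oas2 had 66 to 233 reads in DG and 27, 0, 0 and 7 reads in SVZ 1 to 4. Its estimate of 4.86 (SE 0.93, adjusted p = 0.000767) rests on those few reads, at 5.83 without SVZ 1, 4.19 without SVZ 2 or SVZ 3 and 3.57 with a prior count of 5 reads.

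Guanylate-binding proteins are large GTPases that attack the vacuoles of pathogens and are induced above all by interferon gamma. They were higher in DG in 7 of 7 cases, where 32.9% of all genes were called in that direction. Of the 7, 3 (Gbp2, Gbp3 and Gbp7) met the limit of the table in both regions. Gbp7 stood at 6.08, 5.76, 6.37, 5.95 and 5.35 in DG and at 3.03, 3.14, 2.52 and 3.05 in SVZ. Its ranges did not overlap (7.81-fold, log2 fold change 2.96, SE 0.21, adjusted p = 4.22e-07). Gbp9 stood at 3.65, 3.21, 3.94, 3.41 and 3.45 in DG and at -1.55, -1.81, -1.29 and -0.50 in SVZ. Its SVZ libraries held 8 to 22 reads (log2 fold change 4.82, SE 0.29, adjusted p = 1.5e-07). Gbp2 and Gbp3 were higher by 2.41 (SE 0.28) and 2.45 (SE 0.25), Gbp5 by 3.46 (SE 0.36) and Gbp6 by 1.24 (SE 0.30), with 59.7% of the 50-base stretches of Gbp6 shared with another gene.

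Gbp4 had 169 to 748 reads in DG and 17, 0, 0 and 9 in SVZ. The estimate of 6.24 (SE 0.88, adjusted p = 8.61e-05) was 7.03 without SVZ 1, 5.60 without SVZ 2 or SVZ 3 and 4.92 with a prior count of 5 reads.

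The Ifi200 genes, whose proteins carry a pyrin domain and sense DNA, all entered the table through the DG libraries alone, so their calls are a description. All 5 passed with DG on top, beside 32.9% of all genes. Their median log2 fold change was 5.28, or 4.27 with a prior count of 5 reads. Ifi203 stood at 4.52, 4.24, 4.10, 3.91 and 3.74 in DG and at -0.61, -2.67, -3.01 and -1.45 in SVZ. It fell from 547 to 772 reads in DG libraries to 3 to 20 in SVZ libraries (log2 fold change 6.04, SE 0.44, adjusted p = 6.35e-07). Ifi204 was higher by 4.99 (4.37 without SVZ 1; 4.27 with a prior count of 5 reads), and Ifi207 by 5.15 (5.81 without SVZ 2, 4.44 without SVZ 3 and 4.5 with a prior count of 5 reads). Ifi211 and the pseudogene Ifi203-ps had 376 and 272 reads over all DG libraries and 2 reads each over all SVZ libraries. As shares of the reads this was a ratio of 130 (exact 95% interval 35.8 to 1079) for Ifi211 and 94.2 (25.8 to 782) for Ifi203-ps, intervals that cover counting error only. These genes lie side by side on chromosome 1, and 72.9% of the 50-base stretches of Ifi211 occur in another gene.

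The other effectors were all higher in DG, where 32.9% of all genes were called in that direction. Of these, Mx2, Ifi44, Ifi47 and Ifi27l2a entered the table through the DG libraries alone, so their calls are a description. Bst2 (tetherin), which holds budding viruses at the cell surface, stood at 4.75, 3.78, 4.51, 4.08 and 4.81 in DG and at 1.95, 1.56, 1.49 and 1.30 in SVZ. There was no overlap (7.02-fold, log2 fold change 2.81, SE 0.24, adjusted p = 1.84e-06). Rsad2 (viperin), an antiviral radical enzyme, was higher by 3.03 (SE 0.42), Ifih1 (MDA5), a sensor of long double-stranded RNA, by 3.06 (SE 0.25), and Mx2 by 2.15 (SE 0.45). Ifi35, Ifi44 and Ifi47 were higher by 3.37 (SE 0.26), 4.65 (SE 0.63; 4.04 with a prior count of 5 reads) and 4.72 (SE 0.50). Ifi27 was abundant in both regions, at 6.73 ± 0.16 (SD, n = 5) in DG and 5.92 ± 0.21 (SD, n = 4) in SVZ, and higher in DG by 0.81 (SE 0.12). Ifi27l2a overlapped between the regions and was higher by 2.65 (SE 0.70, adjusted p = 0.00595), or 1.95 without SVZ 3.

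**Figure D4:**
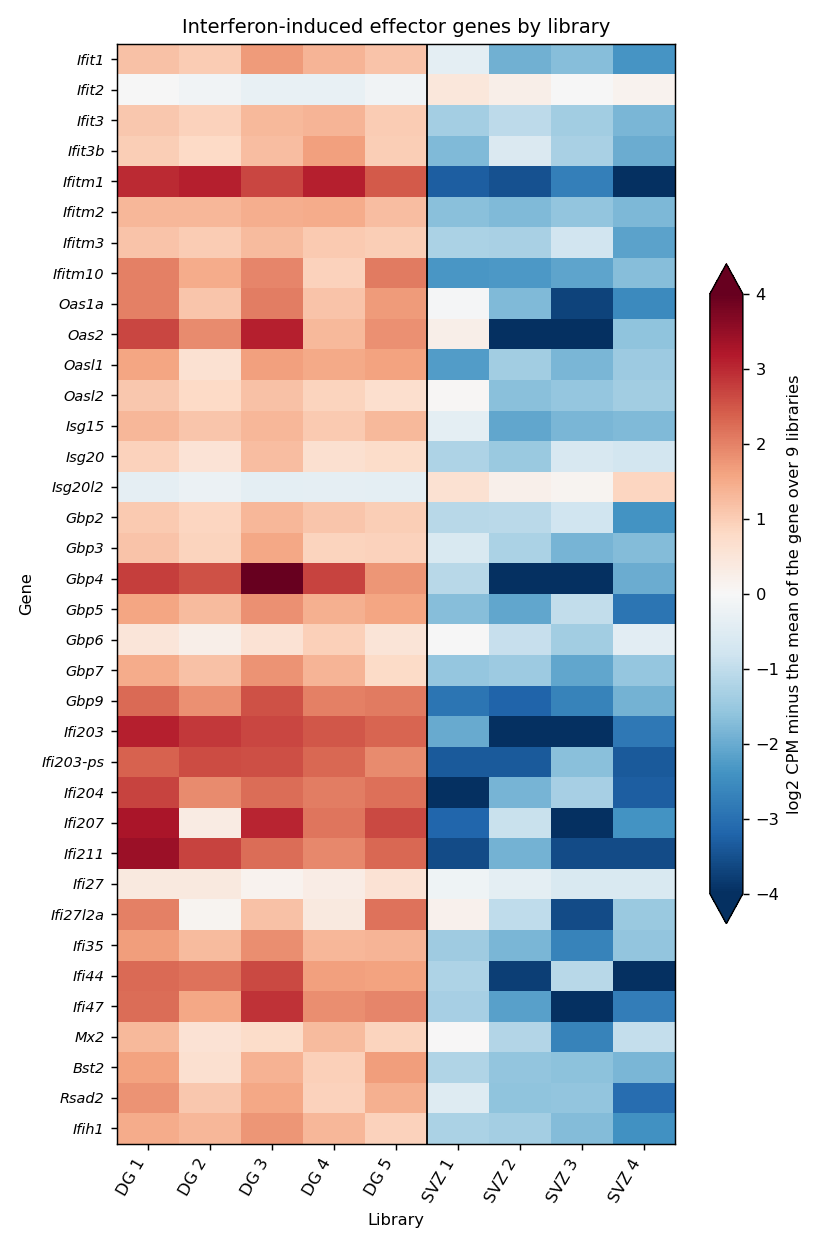
Expression of the 36 interferon-induced effector genes (rows) in the 9 libraries (columns), as log2 CPM minus the mean of the gene over all libraries; the colour scale ends at 4 above and below. Ifit2 and Isg20l2 are the rows that are higher in SVZ, and SVZ 1 is paler than the other SVZ libraries in Ifit1, Oas1a, Oas2, Oasl2 and Isg15.

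Within the regions, the effectors did not vary evenly between libraries. Their mean was 0.90 log2 CPM in SVZ 1 and 0.34, 0.08 and 0.20 in SVZ 2 to 4, and SVZ 1 was the highest SVZ library for 18 of the 36. The SVZ means rest in part on few reads, since 19 of the 36 entered the table through the DG libraries alone. Oas2 and Gbp4 had 27 and 17 reads in SVZ 1 and 0 in SVZ 2 and SVZ 3. In DG the mean was 3.93 in DG 3, 3.89 in DG 1 and 3.42 to 3.59 in the others, and DG 3 was the highest library for 18 of the 36. How often SVZ 1 or DG 3 was the highest library over all genes was not counted. The endothelial marker sum was also highest in SVZ 1 within SVZ (39.9 CPM, against 5.2 to 8.3) and in DG 3 within DG (1241 CPM, against 553 to 745). The fibroblast sum was highest in the same libraries (8.65 CPM in SVZ 1 and 267 CPM in DG 3), and the pericyte sum was highest in SVZ 1 within SVZ (122 CPM, against 48.2 to 68.8). Within DG, however, the pericyte sum was highest in DG 2 (10979 CPM), the library with the lowest effector mean (3.42). The border macrophage sum was highest in DG 1 (842 CPM) and in SVZ 2 (16.1 CPM). The part of these cell types in the differences was not tested. Without SVZ 1, 34 of the 36 were called higher in DG and 2 higher in SVZ.

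**Figure D5:**
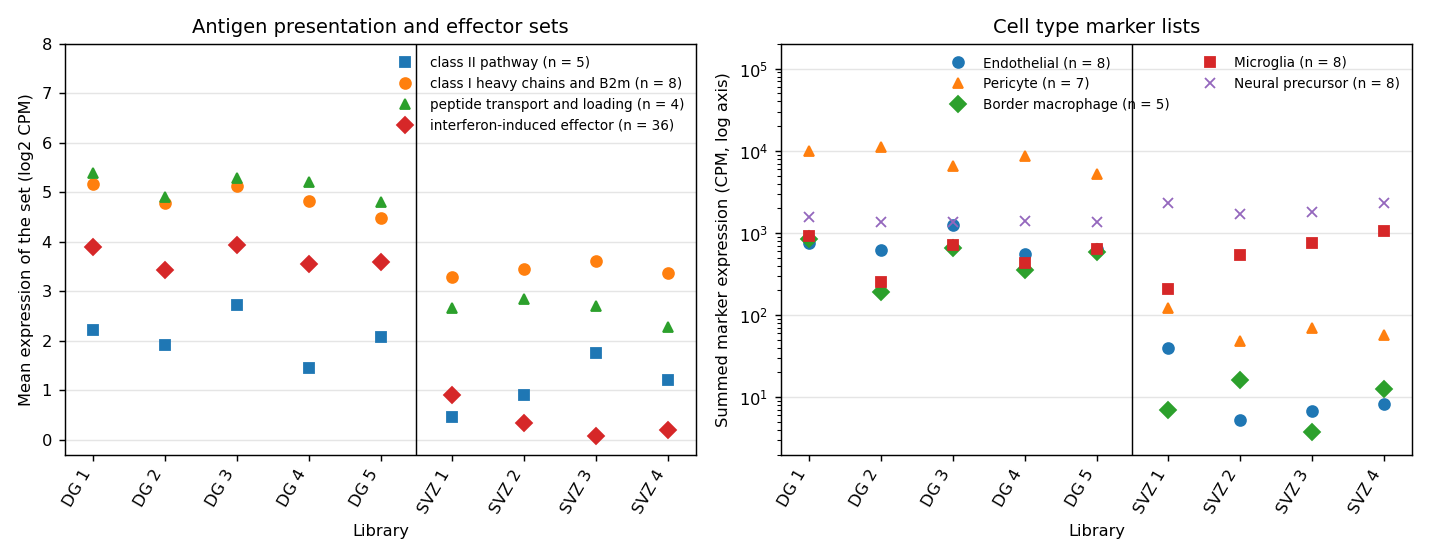
Left, mean expression (log2 CPM) of 4 gene sets in each library; right, summed expression (CPM, log axis) of 5 cell type marker lists in the same libraries. Effector means and endothelial sums are highest in SVZ 1 among SVZ libraries, and microglial sums overlap between the regions.

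Other genes of the same pathways, from a list that holds none of the 71, were read beside them. Of 43 that were in the table, 32 passed with DG on top and 2 with SVZ on top, and 9 did not pass (median log2 fold change 1.42), where 32.9% and 33.7% of all genes were called. The 4 with the smallest adjusted p among those higher in DG were Lgals3bp, a secreted glycoprotein (3.04, SE 0.12, adjusted p = 1.46e-08), Erap1, which trims peptides for class I (2.14, SE 0.13, adjusted p = 1.88e-07), the RNA sensor Ddx58, or RIG-I (2.93, SE 0.19, adjusted p = 2.33e-07), and its adaptor Mavs (1.73, SE 0.11, adjusted p = 2.96e-07). The 2 higher in SVZ were Psme1, a subunit of the proteasome activator PA28 (-0.40, SE 0.10, adjusted p = 0.00551), and the receptor kinase Jak2 (-0.78, SE 0.23, adjusted p = 0.0108). The immunoproteasome subunits Psmb8, Psmb9 and Psmb10 were higher in DG by 2.79, 3.04 and 1.41. Among the 32, Psmb9, Sp100, Parp14, Iigp1 and Ddx60 met the limit of the table through the DG libraries alone. Psmb9, for example, had 15, 15, 34 and 41 reads in SVZ 1 to 4. That limit favours a difference in these genes, so their calls are a description. This list, too, was chosen with earlier results of these data known.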

How the data were processed

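RNA-seq libraries from 5 DG and 4 SVZ samples of sorted cells were analysed. Per the labels' protocols, poly-dT priming with template switching gave amplified cDNA, and the library kit does not mark the strand; molecular identifiers are not mentioned. Per the submitters' processing notes, STAR, edgeR and the mm10 build were used. Versions, the method of gene counting and any filter: not given in the sources used here. That a gene is listed only above 1 CPM in at least 3 libraries was read from the values. The authors deposited log2 CPM. The values themselves show a prior of 1 read in proportion to library size and no further normalization: inverted, 100% were whole reads (tolerance 0.001). Totals cover the genes of the table.

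On these values limma 3.58.1 was run under R 4.3.3, with its trend option, over all 14477 genes, with tissue as the only term and Benjamini-Hochberg adjusted p under 0.05. The fit was tested on simulated data first. No pair of libraries was a duplicate (chi-square per degree of freedom within regions 19.6 to 173). GENCODE M21, on the same build, gave symbols for 14428 identifiers, coordinates (1-based) and exon overlaps; shared 50-base stretches came from its transcripts, and promoter windows from RefSeq. The members and lists were chosen with earlier results of these data known. By the rule for named genes, library values were given for up to 6 genes of each role with the smallest adjusted p and for defining genes such as B2m, Cd74, Irf9 and Isg15; H2-T24 and Irf8 were added after their values were seen. Counts cover all 71 genes, of which 2 are not reported here by name. Alternatives were TMM scaling, another prior count, a filter, a replicate block, voom and leaving out libraries.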

Additional observations from a re-analysis of the deposited data

Results flagged for a closer look

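Within each region the most extreme library of every gene was compared with the others by the gap to its nearest neighbour as a share of the range (Dixon's 95% critical value). Of 142 comparisons 6 exceeded it, where chance gives about 5%. In SVZ 1, Oasl2 was high at 4.47 log2 CPM (others 2.77 to 3.03) and Irf8 was low at -0.36 (others 1.92 to 2.05). In DG 5, Stat6 was low at 6.16 (others 6.97 to 7.22), and in DG 2, Oasl1 was low at 0.62 (others 1.54 to 1.65). Ifi203-ps in SVZ 3 (-3.44) and Ifi211 in SVZ 2 (-3.42) rested on 2 reads each, with 0 reads in the other SVZ libraries.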

How the results depend on the processing

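Of the 71 genes, 60 were higher in DG and 3 higher in SVZ, beside 32.9% and 33.7% of all genes. The count higher in DG was 62 under TMM scaling, 60 with a prior count of 5 reads, 59 to 61 when each library was left out, and 60 with voom or with both DG 2 and SVZ 1 left out, the last 2 settings chosen after seeing the data. With only genes of at least 3 log2 CPM, 34 of the 71 were tested, and 30 were higher in DG, of which 11 were effectors. In that setting 0 antigen presentation genes were higher in SVZ because H2-M5 was not tested. Of the 9762 genes tested there, 2938 were higher in DG. With both DG 2 and SVZ 1 left out, 1 effector was higher in SVZ, since Ifit2 did not pass. H2-T24, not called, changed sign, to 0.00520 under TMM scaling, 0.00210 with voom, 0.0383 with the replicate block and 0.0631 without both DG 2 and SVZ 1, and ranged from -0.205 to 0.0468 when each library was left out. Irf8, not called, ranged from -0.115 (without SVZ 1) to 0.738. With the replicate block, which leaves out DG 5 because no SVZ library has its number, 60 of the 71 were higher in DG and 3 in SVZ. Same-numbered libraries did not deviate together (correlations -0.05, -0.17, 0.01 and -0.11), and no SVZ library correlated best with the DG library of its own number. Whether same-numbered libraries came from the same animals or sort is not known. These correlations cannot decide it, because other spread between libraries can hide a shared origin. TMM scaling moved the median of all genes by 0.05. The planned count test in edgeR was not run because the deposited unit is log2, and protein identities were not computed because no protein table was used. Genes with few SVZ reads, such as Oas2 and Gbp4, have fold changes that depend on the prior count.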

Other observations

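Some other genes of these pathways had the same lowest libraries as H2-D1. Pdia3, a chaperone of class I loading, stood at 7.93, 6.37, 8.30, 7.06 and 5.91 log2 CPM in DG and at 5.75, 7.94, 7.0 and 5.75 in SVZ, and did not differ by the test (log2 fold change 0.51, SE 0.56, adjusted p = 0.433). The receptor kinase Jak1 stood at 7.30, 6.61, 7.60, 7.22 and 6.30 in DG and at 5.73, 6.57, 6.30 and 6.11 in SVZ. DG 5 was the lowest DG library and DG 2 the next for H2-D1, Pdia3 and Jak1, and SVZ 1 and SVZ 4 were the lowest SVZ libraries for all 3. Stat3 had the same lowest libraries in DG, at 7.18, 6.39, 7.04, 6.68 and 5.93. In SVZ it varied little, at 5.54, 6.11, 5.89 and 5.79, and SVZ 1 and SVZ 4 were again the lowest. H2-K1 and B2m did not show this order: DG 5 was the highest DG library for B2m. These genes were chosen after their values were seen, and no test was made.

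By Pearson correlation over the 9 libraries, a measure of likeness that here mostly reflects the gap between the regions and carries no test, the genes of at least 3 log2 CPM most like B2m were Fam3a (0.996), Psmb10 (0.996) and Slc35b1 (0.995).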
